A study of Homo sapiens with 2 samples.

Results

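The genes described here are 10 genes of the endoplasmic reticulum (ER): the lumenal chaperones HSPA5, HSP90B1 and CALR, the disulfide isomerases PDIA4 and PDIA6, the cochaperones SDF2L1 and DNAJB9, the degradation factors HERPUD1 and EDEM1, and the transcription factor XBP1. They were taken by symbol from the 33538 genes of the files, and all 10 were found. The study used A375, an established human melanoma cell line, sequenced as single cells. The persister group was A375 cells left alive after 15 days with cytotoxic T lymphocytes (CTLs) against the antigen NY-ESO-1, renewed every 3 days, in medium with 7.5 ng/mL interleukin 2. The parental group was untreated A375 cells, and the labels do not say whether these received interleukin 2. Each group was 1 library made with the 10x Chromium 3' kit, so no difference between the groups has a replicate check and no test between them was run.

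Proteins bound for the cell surface or for secretion fold in the ER with the help of these chaperones. When unfolded protein builds up, the unfolded protein response acts through the sensors IRE1 (gene ERN1), PERK (gene EIF2AK3) and ATF6. IRE1 splices XBP1 RNA and ATF6 is cut to a free transcription factor, and both raise chaperone and degradation genes, while PERK acts through the factor ATF4 on DDIT3 and CHAC1. Other kinases also feed into ATF4, in what is called the integrated stress response. In cells that face T cells the same compartment assembles MHC class I molecules, with calreticulin, the product of CALR, in the loading complex.

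The classical DNA element of ATF6 and XBP1, the ER stress response element (ERSE), consists of CCAAT and CCACG with 9 bases of any kind between them. It was searched on both strands in RefSeq promoter windows (build GRCh38.p14) that run from 250 bases before to 50 bases after an annotated start. An exact match was found for 5 of the 10 genes, namely HSPA5, HSP90B1, CALR, PDIA6 (at the second of its listed starts) and XBP1. The shorter ERSE-II, made of ATTGG, 1 base of any kind and CCACG, shares the letters CCACG with ERSE and was found in SDF2L1 and HERPUD1. Of 34796 windows of the same length, 0.0776% held ERSE and 0.0546% held ERSE-II. No match to either was found in PDIA4, DNAJB9 or EDEM1. TGACGTGG, the core of the XBP1 element (0.733% of windows), had 0 matches in the windows of the 10 genes. TGATGNAAT, a form of the element bound by ATF4 with a C/EBP factor (1% of windows), also had 0 exact matches there. Its last letter was fixed as T, and forms with another last letter were not searched. The HERPUD1 window printed below holds gttgcatca, which on the other strand differs from TGATGNAAT only in that last letter. The 0 therefore does not show that the 10 genes lack such an element. A match is a description of the letters and not a measured binding site.

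Windows of 5 of these genes are shown because they carry a stress element and yet their RNA differed between the libraries in opposite directions. Capitals mark the fixed letters of ERSE or ERSE-II, and each sequence is on the strand of its gene. HSPA5, SDF2L1 and XBP1 are on the minus, plus and minus strands of chr9:125241294-125241593, chr22:21642052-21642351 and chr22:28800520-28800819. CALR and HERPUD1 are on the plus strands of chr19:12938359-12938658 and chr16:56931892-56932191.
HSPA5: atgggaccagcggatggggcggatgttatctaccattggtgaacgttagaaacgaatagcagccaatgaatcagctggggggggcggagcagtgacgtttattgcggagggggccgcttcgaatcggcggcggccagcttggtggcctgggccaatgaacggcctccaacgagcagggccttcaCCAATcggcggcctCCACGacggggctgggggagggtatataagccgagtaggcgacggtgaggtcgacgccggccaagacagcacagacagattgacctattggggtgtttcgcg
CALR: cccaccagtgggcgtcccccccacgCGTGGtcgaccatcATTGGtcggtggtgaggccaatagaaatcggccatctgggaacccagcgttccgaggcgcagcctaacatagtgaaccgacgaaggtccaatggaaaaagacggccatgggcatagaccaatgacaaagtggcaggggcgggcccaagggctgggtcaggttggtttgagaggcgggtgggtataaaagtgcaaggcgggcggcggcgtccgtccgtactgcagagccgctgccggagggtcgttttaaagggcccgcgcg
SDF2L1: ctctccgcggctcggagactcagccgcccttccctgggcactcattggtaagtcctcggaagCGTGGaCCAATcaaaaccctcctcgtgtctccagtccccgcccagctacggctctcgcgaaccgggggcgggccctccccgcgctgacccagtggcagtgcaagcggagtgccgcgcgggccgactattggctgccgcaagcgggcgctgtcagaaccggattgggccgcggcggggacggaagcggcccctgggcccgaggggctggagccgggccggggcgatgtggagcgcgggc
HERPUD1: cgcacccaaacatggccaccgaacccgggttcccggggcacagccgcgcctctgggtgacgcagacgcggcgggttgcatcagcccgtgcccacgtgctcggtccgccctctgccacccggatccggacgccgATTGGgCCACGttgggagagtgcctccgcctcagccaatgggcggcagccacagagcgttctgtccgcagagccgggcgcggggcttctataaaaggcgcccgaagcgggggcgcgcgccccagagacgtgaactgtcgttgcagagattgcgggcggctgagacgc
XBP1: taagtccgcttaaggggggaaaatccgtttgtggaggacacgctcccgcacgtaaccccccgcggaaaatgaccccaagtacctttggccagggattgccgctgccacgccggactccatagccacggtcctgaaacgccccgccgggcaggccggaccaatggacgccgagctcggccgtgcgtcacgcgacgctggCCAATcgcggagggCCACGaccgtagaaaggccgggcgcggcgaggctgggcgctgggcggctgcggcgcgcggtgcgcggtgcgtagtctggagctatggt

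HSP90B1 holds a pair of ERSE matches, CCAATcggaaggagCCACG beginning 194 bases before the start and, read on the other strand, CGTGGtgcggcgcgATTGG beginning 89 bases before it. The PDIA6 match, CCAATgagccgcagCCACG, begins 86 bases before its second start.

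The values below are sums of unique molecular identifiers (UMIs, distinct RNA molecules) over the compared cells, as counts per 1000000 UMIs (CPM). Compared cells were 6605 of 7144 persister barcodes and 10630 of 10751 parental barcodes. They had at least 500 genes, at least 1000 UMIs, at most 20% mitochondrially encoded UMIs and fewer than 3 of the T cell genes CD2, CD3D, CD3E, CD52, PTPRC and TRAC detected (6 genes). The sums were 79546026 UMIs in persister and 88110998 UMIs in parental cells, with medians of 11284 and 7590 UMIs per cell. Mitochondrial RNA made up a median of 7.53% of a persister and 5.92% of a parental cell, and 32 barcode sequences occurred among the compared cells of both libraries. Of 10 melanoma markers 8 were at 5 CPM or more in at least 1 library. Of these, 2 were at least 2-fold higher in persister cells and 2 at least 1.5-fold lower, and the list summed to 1508 CPM in persister and 458.5 CPM in parental cells. SOX10 (179 CPM in persister, 99.6 CPM in parental cells) and S100B (63.2 and 47.5 CPM) were present, while the pigment genes PMEL and MLANA had at most 11 UMIs in either library. T cell markers, 16 genes, summed to 12.7 CPM in persister and 4.54 CPM in parental cells, with CD2, CD3G, TRBC1, CD8B and GZMB at 0 UMIs in parental cells. In the 162 persister barcodes set aside by the T cell rule the same markers summed to 7112 CPM.

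The 10 genes did not move as a block. XBP1, HERPUD1 and DNAJB9 were at least 2-fold higher in persister cells, CALR and SDF2L1 were lower by as much, and the other 5 differed by less. A gene was called measured when it reached 5 CPM in 1 library or both, which 9938 genes did. Folds are ratios of CPM. Of the measured genes, 10.1% passed 2-fold on the higher side and 10.8% on the lower side, so a share of members close to these is not a result about them. DNAJB9 reached 5 CPM only in persister cells, where it is high, and had to differ to be measured. The other 9 genes reached it in both libraries. At a fold of 1.5, HERPUD1, XBP1, DNAJB9 and EDEM1 were higher (4 of 10, against 17.2% of measured genes), and CALR, SDF2L1 and PDIA6 were lower (3 of 10, against 25.6%). The median log2 fold, persister over parental on the log2(CPM + 1) scale, was 0.16 for the 10 genes and -0.15 for all measured genes. In all, 5 of the 10 had a ratio above 1, as did 40.6% of measured genes. Summed over the 10 genes, RNA stood at 2422 CPM in persister and 2910 CPM in parental cells, a ratio of 0.832. The choice of scale matters for these small values: with TMM scaling the median of all measured genes was -0.03, a shift of the whole scale by more than 0.1, and calls at 2-fold were 1151 higher and 808 lower in place of 1001 and 1070.

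**Figure D1:**
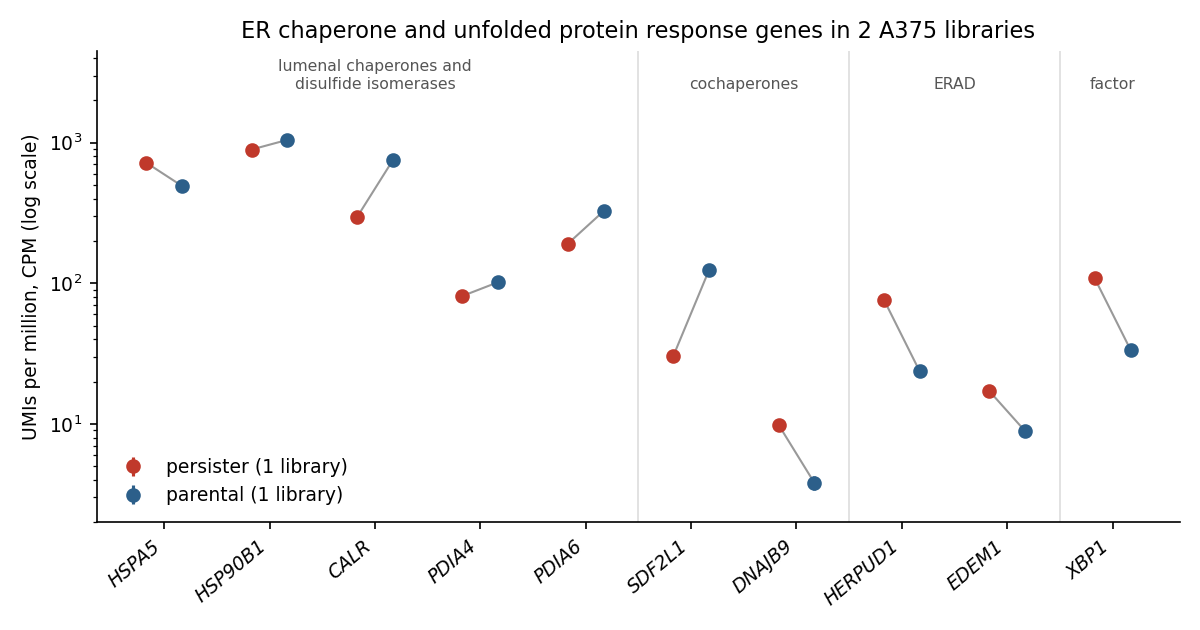
CPM of the 10 genes (log axis) in the persister library (red, left of each pair) and the parental library (blue, right), ordered by role, with 1 library per group and 95% counting intervals smaller than the points or nearly so. CALR and SDF2L1 lie lower in persister cells, at 295 and 30.2 CPM, while XBP1, HERPUD1, DNAJB9 and EDEM1 lie higher, at 108, 76.4, 9.87 and 17.1 CPM.

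HSPA5, which encodes BiP, the ER chaperone that also holds the sensors inactive (GRCh38 chromosome 9, 125234853 to 125241330, minus strand), had a level of 720 CPM in persister cells, with a 95% exact Poisson interval of 714 to 726 for counting error only. In parental cells it was 492 CPM (487 to 496). The persister level was 1.46-fold higher (interval of the ratio 1.45 to 1.48). HSP90B1, which encodes the ER member of the HSP90 family (chromosome 12, 103930107 to 103953645, plus strand), was on the other side of 1. Its level was 893 CPM (887 to 900) in persister and 1047 CPM (1040 to 1054) in parental cells, 1.17-fold lower. These 2 chaperones, both with ERSE matches, differed by less than 1.5-fold between the libraries and in opposite directions. Their log2 folds were 0.55 and -0.23, where the median of all measured genes was -0.15, near the value of HSP90B1. With TMM scaling the log2 folds were 0.67, which is past 1.5-fold, and -0.11.

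CALR encodes calreticulin, which binds the sugars of folding glycoproteins (plus strand of chromosome 19, 12938578 to 12944489). It fell to 295 CPM (291 to 299) in persister cells, against 750 CPM (745 to 756) in parental cells, 2.54-fold lower. SDF2L1, an ER protein that works with HSPA5 and its J-domain cochaperones (plus strand of chromosome 22, 21642261 to 21644298), was lower by more. It was at 30.2 CPM (29 to 31.5) in persister and 124 CPM (122 to 126) in parental cells, 4.10-fold lower. The isomerases, which form and rearrange disulfide bonds, were on the same side. PDIA6 (minus strand of chromosome 2, 10783391 to 10837977) had 191 CPM in persister and 326 CPM in parental cells, 1.71-fold lower. PDIA4 (minus strand of chromosome 7, 149003062 to 149028641) had 81.2 CPM in persister and 102 CPM in parental cells, 1.25-fold lower.

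The degradation factors and XBP1 were higher. HERPUD1, a membrane protein of the ubiquitin ligase complex that clears misfolded ER proteins (plus strand of chromosome 16, 56932048 to 56944863), reached 76.4 CPM (74.5 to 78.4) in persister cells, against 23.6 CPM (22.6 to 24.6) in parental cells. The ratio was 3.24 (3.08 to 3.40). EDEM1, which directs misfolded glycoproteins to degradation (plus strand of chromosome 3, 5187646 to 5219957), reached 17.1 CPM (16.2 to 18.1) in persister and 8.89 CPM (8.28 to 9.53) in parental cells, 1.93-fold higher. XBP1 (minus strand of chromosome 22, 28794555 to 28800597) had 108 CPM (106 to 111) in persister and 33.7 CPM (32.5 to 34.9) in parental cells, 3.22-fold higher. Counts per gene do not separate spliced from unspliced XBP1 RNA, so the activity of IRE1 was not measured. DNAJB9, a J-domain cochaperone of HSPA5 that is a known target of spliced XBP1 (plus strand of chromosome 7, 108569568 to 108574850), had 9.87 CPM in persister and 3.81 CPM in parental cells. Its ratio of 2.59 (2.28 to 2.95) rests on 785 and 336 UMIs.

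The sources used here do not give whether reads were counted by strand, and several genes overlap an annotated gene on the opposite strand. DNAJB9 overlaps PNPLA8, with 4009 UMIs (50.4 CPM) in persister and 1662 UMIs (18.9 CPM) in parental cells, a ratio of 2.67 beside the 2.59 of DNAJB9. It also overlaps THAP5, with 3269 and 3585 UMIs. The part of these partners in the DNAJB9 ratio was not tested. HSP90B1 overlaps C12orf73, CALR overlaps AC092069.1, PDIA6 overlaps ATP6V1C2 and EDEM1 overlaps AC026202.3, each with at most 3028 UMIs in either library. The split of reads between these partners is uncertain, most of all for DNAJB9.

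The differences were also seen in shares of cells at equal depth. For this, 5000 UMIs were drawn at random from each cell. This kept 5897 persister and 9094 parental cells, and 708 and 1536 shallower ones could not be used. A CALR UMI was found in 73.2% of persister cells (exact interval 72.0 to 74.3%) and 96.5% of parental cells (96.1 to 96.9%), with medians of 1 and 4 UMIs. The parental median was reached by 8.55% of persister cells. SDF2L1 was seen in 13.7% of persister and 45.3% of parental cells. HERPUD1 was seen in 31.0% of persister cells (29.8 to 32.2%) and 11.2% of parental cells (10.6 to 11.9%), and XBP1 in 40.4% and 15.9%. The DNAJB9 shares were 4.66% of persister and 1.89% of parental cells, and the EDEM1 shares 8.33% and 4.15%. HSPA5 was detected in 92.7% of persister and 87.8% of parental cells, with medians of 3 and 2 UMIs. For HSP90B1 the shares were 96.5% and 98.4%, for PDIA6 58.8% and 79.6%, and for PDIA4 31.7% and 39.8%.

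Without thinning, the shares were 88.6% of persister and 98.2% of parental cells for CALR, 54.5% and 17.4% for HERPUD1, and 65.7% and 23.5% for XBP1. PDIA4 was seen in 55.4% of persister and 53.7% of parental cells without thinning, the opposite order to that at equal depth and to its CPM, so no order is read from that share. All cell types express these genes, so no cell type here gives a background share. In the set-aside T cell barcodes, whose median depth was 3568 UMIs, a UMI was found in 53.7% for CALR and 35.8% for HERPUD1. Over all 10 genes a thinned persister cell had a median of 12 UMIs (5th to 95th percentile 5 to 21) and a parental cell 14 UMIs (7 to 25), and the ranges overlapped widely.

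**Figure D2:**
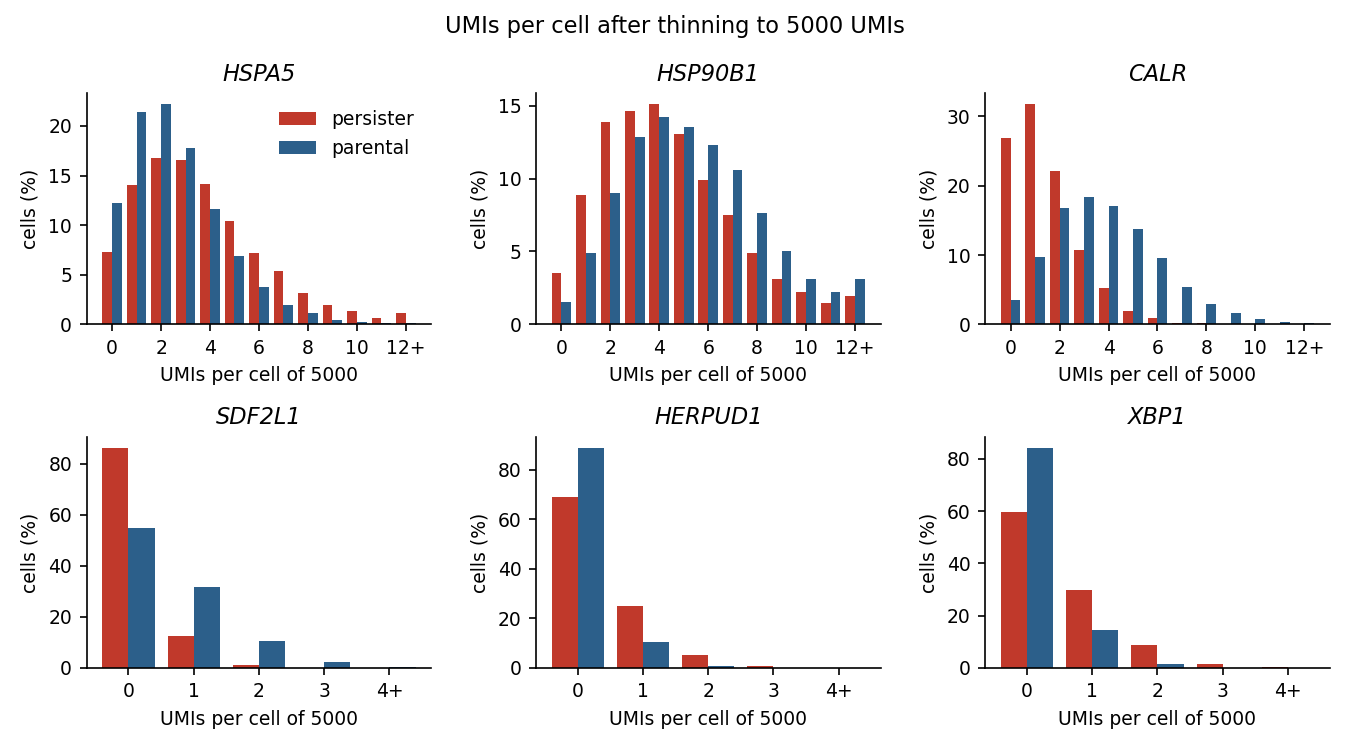
Share of cells (%) by number of UMIs per cell after thinning to 5000 UMIs, for 6 of the genes, in 5897 persister cells (red, left bars) and 9094 parental cells (blue, right bars); the last bar pools all higher counts. CALR has its median at 1 UMI in persister and 4 UMIs in parental cells, and cells without a HERPUD1 or XBP1 UMI are fewer in the persister library.

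The directions were the same in cells called G1, S and G2/M for all 10 genes, but not the sizes. Phase calls came from scores of cell cycle genes and labelled 51.0% of persister and 4.43% of parental cells G1. Such calls rest on the scores alone, and no other measure of phase was at hand. HERPUD1 was 1.94-fold higher in cells called G1, 3.85-fold in S and 3.21-fold in G2/M. For XBP1 these ratios were 1.97, 3.22 and 3.57. The parental levels were higher in G1 than in G2/M: the 471 parental G1 cells had 39.2 CPM of HERPUD1, 51.0 CPM of XBP1 and 64.7 CPM of DDIT3, against 23.9, 32.9 and 17.4 CPM in parental G2/M cells. Over G1 cells the median log2 fold of the 10 genes was -0.10, on the other side of 0 from that over all cells. In G1 cells alone only DNAJB9 of the 10 genes was at least 2-fold higher (2.16-fold), and CALR and SDF2L1 were 2.86-fold and 4.29-fold lower. Cells called G1 are chosen for low scores, so this is not a clean control for phase, and the part of phase in the differences between the libraries was not tested.

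Leaving out every cell with any of the 6 T cell genes changed these values little. Without those cells, the log2 fold was 1.66 for HERPUD1, 1.66 for XBP1, 0.87 for EDEM1, -1.35 for CALR and -2.02 for SDF2L1, against 1.65, 1.66, 0.88, -1.34 and -2.00 in all compared cells.

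The wider pathway lists, all chosen with earlier results of these data known, had medians between -0.29 and 0.10 on the log2 scale, except for the PERK and ATF4 arm and the cytosolic heat-shock genes. Among 6 sensor and transducer genes 5 were measured (median log2 fold 0.10). Of these 2 passed 2-fold, both on the higher side, against 10.1% of all measured genes. ERN1 was 7.33 CPM in persister and 1.84 CPM in parental cells, 3.99-fold higher, and ATF6 was 79.9 and 37.1 CPM, 2.15-fold higher. MBTPS1, a protease that cuts ATF6, was 46.1 and 42.8 CPM. ERN1 was over the threshold of 5 CPM only in persister cells, where it is high, so its place in this count is in part set by the threshold. EIF2AK3, which encodes PERK, was under it in both, at 1.32 and 2.02 CPM.

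Chaperones and folding enzymes other than the 10 genes had 22 measured members and a median of -0.23. Those past 2-fold were 1 higher and 2 lower, against 10.1% and 10.8% of all measured genes. Past 1.5-fold were 2 higher and 8 lower, against 17.2% and 25.6%. SERPINH1, a collagen chaperone, fell to 13.6 CPM in persister cells, against 45.9 CPM in parental cells, and CRELD2, a secreted ER stress protein, to 14.1 CPM, against 45.7 CPM. The oxidase ERO1B was higher, at 38.9 and 15.5 CPM. In the ER degradation list, with 14 measured genes and a median of 0.04, 0 passed 2-fold on the higher side and 1 on the lower. SEL1L and HERPUD2 were 1.66-fold and 1.60-fold higher, and the extraction ATPase VCP was 66.8 CPM in persister and 146 CPM in parental cells, 2.19-fold lower. HERPUD1 and EDEM1, which act in the same process, had ratios of 3.24 and 1.93, against the highest ratio of 1.66 in that list. For translocation into and export from the ER the median over 22 genes was -0.29. The single gene past 2-fold was KDELR3, which encodes a receptor that returns ER proteins from the Golgi, lower at 5.95 and 12.5 CPM. The translocon-associated genes SSR3 and SSR2 were 1.98-fold and 1.86-fold lower. With TMM scaling these medians were -0.12, 0.15 and -0.17, and KDELR3 was no longer 2-fold lower.

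In the PERK and ATF4 list, which the 10 genes were set against, log2 folds ran from -0.09 to 5.37. Its median log2 fold was 1.87, and 23 of its 29 genes were higher by 2-fold or more, with 0 lower by as much. Of all measured genes, 10.1% and 10.8% were. CHAC1, ATF3, VLDLR, NUPR1, STC2 and CTH reached 5 CPM only in persister cells, where they are high. Their place in this count is in part set by that threshold. DDIT3, the transcription factor CHOP, was 422 CPM (417 to 426) in persister and 19.1 CPM (18.2 to 20) in parental cells, 22.1-fold higher. CHAC1, a glutathione-degrading enzyme, was 59.8 CPM in persister and 1.03 CPM in parental cells, 57.9-fold higher on 4753 and 91 UMIs. WARS, which is also a target of interferon gamma, was the third gene named from this list, at 1954 and 46.2 CPM. In cells called G1 the DDIT3 and CHAC1 ratios were smaller, at 6.63 and 21.8. The largest ratios among the 10 were 3.24 for HERPUD1 and 3.22 for XBP1, and their log2 folds of 1.65 and 1.66 were below the median of the list but inside its range. The cytosolic heat-shock list was lower in 10 of 12 genes at 2-fold (8 with TMM scaling), against 10.8% of measured genes. Its median was -1.27, and HSPA1A, HSPA8 and HSPA1B were lowest. HSPA1A and HSPA1B reached 5 CPM only in parental cells, where they are high, so the threshold in part sets their place in this count. Reads of the near-identical HSPA1A and HSPA1B cannot be fully separated.

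**Figure D3:**
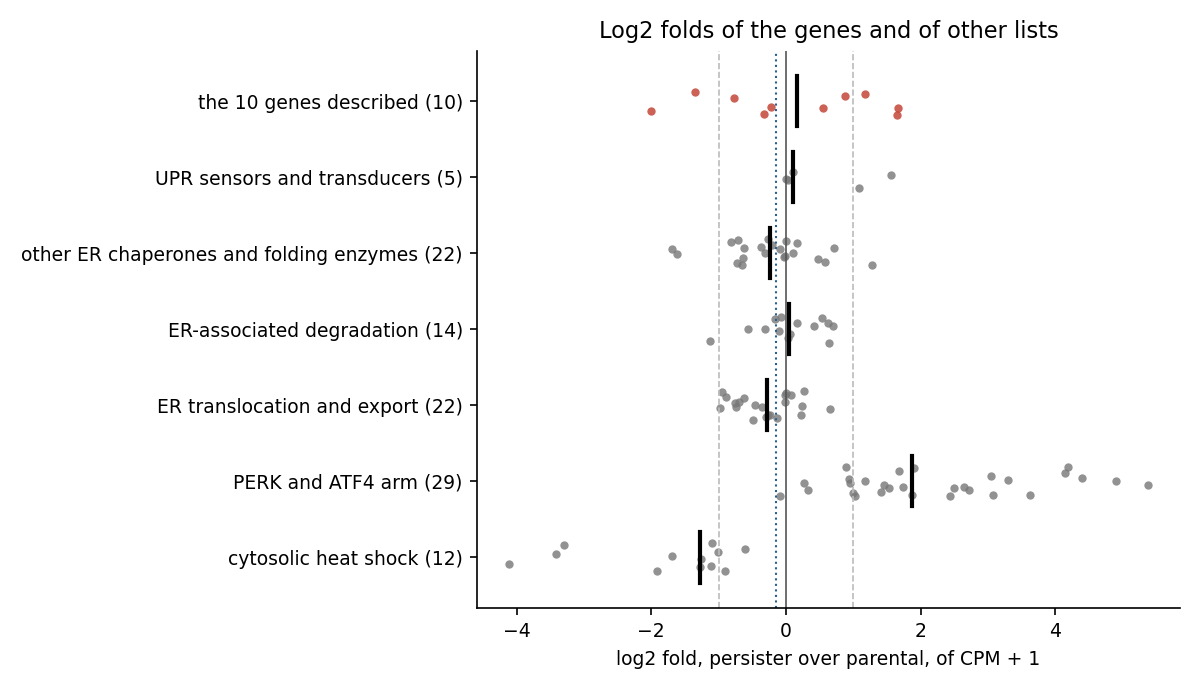
Log2 fold, persister over parental, of CPM + 1 for each measured gene of the 10 and of 6 other lists, with the number of genes in brackets, black bars at list medians, dashed lines at 2-fold and a dotted line at the median of all 9938 measured genes (-0.15). The 10 genes (red) spread from -2.00 to 1.66 around a median of 0.16, while the PERK and ATF4 list has its median at 1.87 and the cytosolic heat-shock list at -1.27.

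Within the persister library the 10 genes hardly followed DDIT3. Thinned persister cells were grouped by DDIT3 UMIs into 914 cells with 0, 2903 with 1 to 2, 1839 with 3 to 5 and 241 with 6 or more. HSPA5 averaged 3.36, 3.66, 3.73 and 3.91 UMIs per cell over these groups, and the ratio of the last to the first was 1.17 (1.08 to 1.25). HERPUD1 averaged 0.360, 0.372, 0.402 and 0.398 UMIs, a ratio of 1.11 (0.872 to 1.39). XBP1 averaged 0.542, 0.531, 0.540 and 0.510 UMIs, a ratio of 0.942 (0.767 to 1.15). HSPA5 was the only one of the 10 whose counting interval did not include 1. For CALR the ratio was 1.04 (0.926 to 1.17) and for SDF2L1 0.822 (0.539 to 1.22). The median ratio was 0.984 for the 10 genes and 0.982 for all 9641 measured genes. Past 1.2-fold was 1 of the 10 on the higher side (DNAJB9, whose interval ran from 0.611 to 2.24), against 19.5% of measured genes, and 1 on the lower side (SDF2L1), against 24.4%. Past 1.5-fold were 0 of the 10 in either direction, against 6.3% and 9.56% of measured genes.

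A thinned persister cell held a mean of 2.13 DDIT3 UMIs, so the DDIT3 groups rest on few UMIs per cell. The variance of DDIT3 UMIs over their mean was 1.31 in thinned persister cells and that of CHAC1 1.04, where counting error alone gives 1. For the same spread of levels between cells this ratio is larger at a higher mean. It therefore does not show how much DDIT3 levels differed between cells. CHAC1 itself had a ratio of 1.14 (0.865 to 1.49) between the DDIT3 groups. Over the 29 genes of the PERK and ATF4 list the median ratio was 1.04. Past 1.2-fold were 6 on the higher side and 3 on the lower, against 19.5% and 24.4% of measured genes. DDIT3 itself is in this list, and the grouping by its UMIs alone puts it on the higher side. Among single genes looked at, ASNS had 1.06, TRIB3 1.02 and ATF3 0.758 (0.589 to 0.966). Pearson's r over cells between DDIT3 and each of the 10 ran from -0.0298 (SDF2L1) to 0.0445 (HSPA5), and 90% of genes at 50 CPM or more lay between -0.042 and 0.0338. The cell groups with 6 or more and 0 DDIT3 UMIs had medians of 11181 and 12138 UMIs before thinning and 7.92% and 7.68% mitochondrial RNA. In parental cells, 709 with 1 to 2 and 8367 with 0 DDIT3 UMIs could be compared. XBP1 averaged 0.209 and 0.170 UMIs there, HERPUD1 0.131 and 0.118, HSPA5 2.61 and 2.55, and HSP90B1 5.59 and 5.36. DNAJB9 was also higher in the first group, while CALR (3.77 and 3.83), SDF2L1 (0.602 and 0.624), PDIA4, PDIA6 and EDEM1 were lower. The counting interval of the first group left out the mean of the second only for XBP1 (0.1765 to 0.245) and HSP90B1 (5.42 to 5.77).

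**Figure D4:**
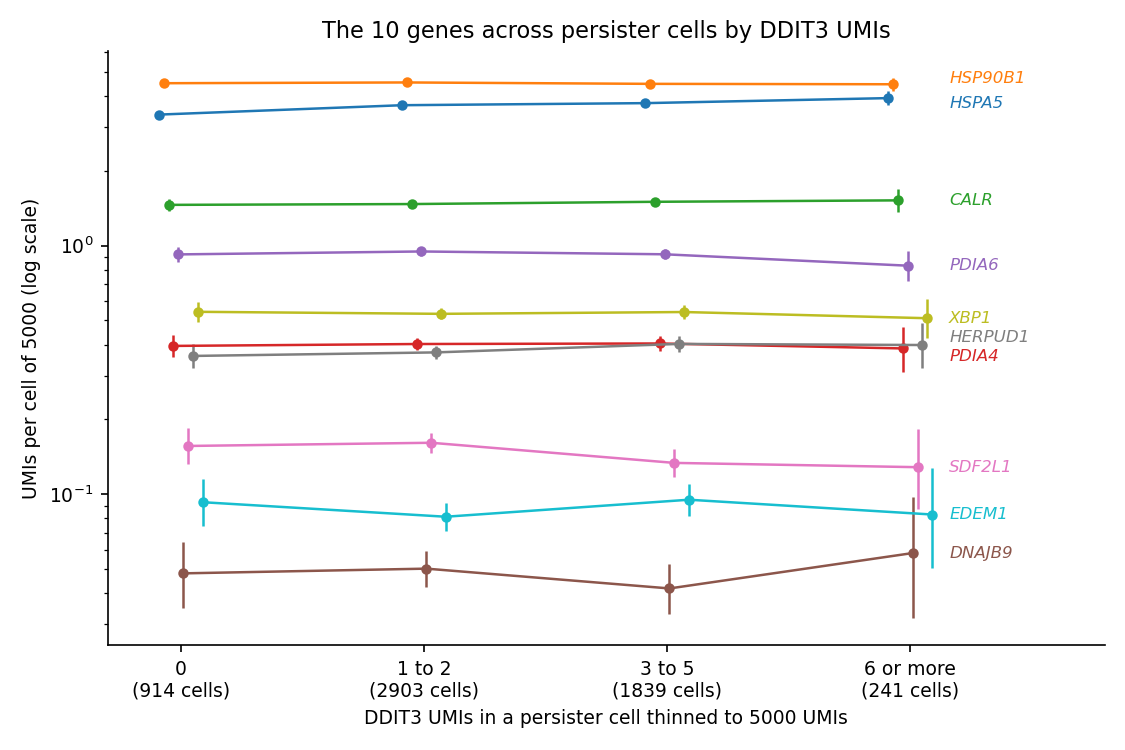
Mean UMIs per cell of the 10 genes (log axis) in persister cells thinned to 5000 UMIs, grouped by DDIT3 UMIs (0, 1 to 2, 3 to 5, 6 or more), with 95% exact Poisson intervals. The lines are nearly level, with HSPA5 at 3.36, 3.66, 3.73 and 3.91 UMIs over the 4 groups.

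Cells were also grouped by a sum over the arm. This grouping was chosen after the DDIT3 result was seen. It took the summed UMIs of 28 genes of the PERK and ATF4 list (WARS left out). Their median was 20 UMIs per persister cell and their variance over mean 1.65, which at this higher level is not comparable with the 1.31 of DDIT3. The 637 persister cells with 28 or more of these UMIs were compared with the 673 cells with 13 or fewer. HSPA5 averaged 4.42 UMIs (4.26 to 4.58) in the high and 2.76 UMIs (2.64 to 2.89) in the low cells, a ratio of 1.60 (1.51 to 1.70). XBP1 averaged 0.612 and 0.432 UMIs, a ratio of 1.42 (1.21 to 1.65), and HERPUD1 0.418 and 0.315 UMIs, a ratio of 1.33 (1.10 to 1.59). SDF2L1 went the other way, at 0.118 and 0.193 UMIs, a ratio of 0.609 (0.453 to 0.816). CALR was also lower in the high cells, at 1.40 and 1.62 UMIs (ratio 0.865, 0.791 to 0.946), as was DNAJB9 (ratio 0.565, 0.325 to 0.959). HSP90B1 and PDIA6 had ratios of 1.17 each, near the median of 1.09 over all 9740 measured genes (1.12 over the 10 genes), and the intervals of PDIA4 and EDEM1 included 1.

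Many genes differed between these cells: past 1.2-fold were 3 of the 10 on the higher side, against 35.8% of measured genes, and 2 on the lower side, against 18%. Past 1.5-fold, HSPA5 stood alone among the 10 on the higher side (12.5% of measured genes), and SDF2L1 and DNAJB9 on the lower side (7.13%). Pearson's r over cells with the summed arm was 0.185 for HSPA5 in persister cells, and 6 of the 2672 other genes at 50 CPM or more had a higher value. In parental cells it was 0.0309, and 395 of 2817 genes were higher. The other 9 genes had r between -0.0583 and 0.0709 in persister cells. High and low cells also differed in mitochondrial RNA (medians 6.95% and 8.58%), depth before thinning (13179 and 11394 UMIs) and share called G1 (37.8% and 69.7%). Within one phase, the HSPA5 ratio was 1.76 (1.63 to 1.91) in G1, 1.5 (1.25 to 1.81) in S and 1.47 (1.31 to 1.65) in G2/M. For the other genes the values within phases, which rest on fewer cells, were less even. XBP1 had ratios of 1.39 (1.10 to 1.74) in G1, 1.15 (0.748 to 1.79) in S and 1.34 (1.01 to 1.80) in G2/M. HERPUD1 had 1.45 (1.11 to 1.88) in G1, and its intervals in S (0.734 to 2.19) and G2/M (0.803 to 1.61) included 1. HSP90B1 turned round in S, at 0.826 (0.709 to 0.962), against 1.26 in G1 and 1.15 in G2/M. CALR was at 0.80 in G1, 1.01 (0.784 to 1.31) in S and 0.787 in G2/M. SDF2L1 was below 1 in each phase, but its intervals in G1 and S reached past 1, and those of DNAJB9 included 1 in all 3 phases.

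**Figure D5:**
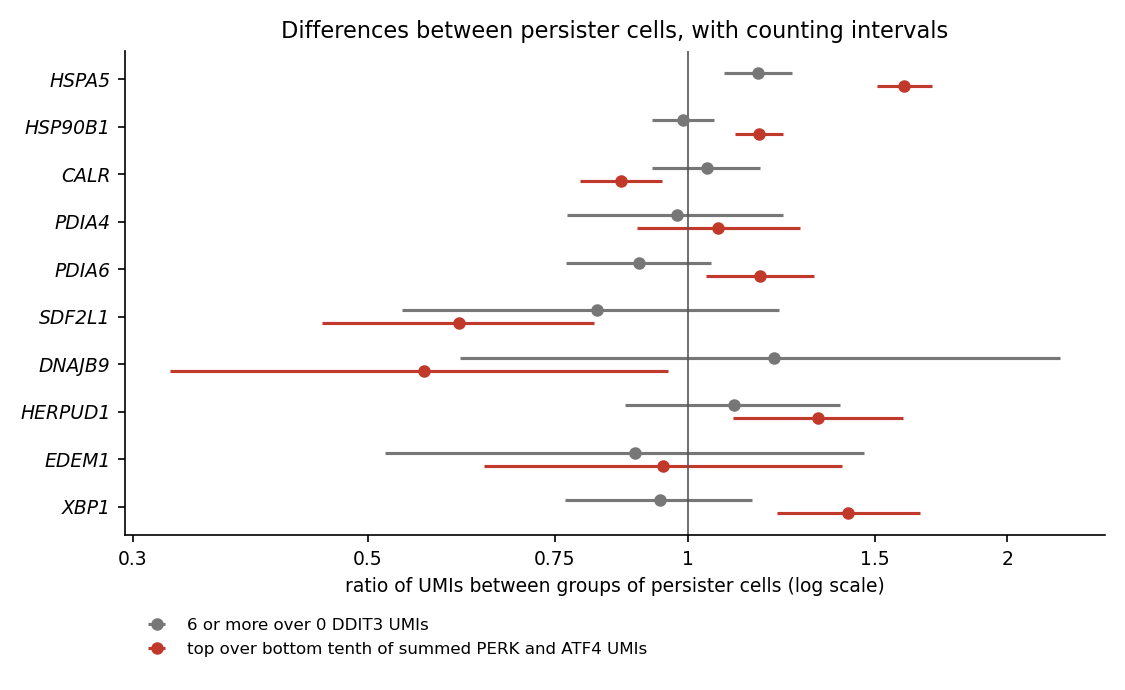
Ratio of UMIs between groups of persister cells (log axis) for the 10 genes, with 95% counting intervals: cells with 6 or more over 0 DDIT3 UMIs (grey) and the cells highest over those lowest in summed UMIs of 28 PERK and ATF4 genes (red). HSPA5 stands highest in the second comparison at 1.60, and the intervals of CALR, SDF2L1 and DNAJB9 in it lie below 1.

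Among themselves the 10 genes were weakly correlated over thinned cells. Over the 45 pairs the median r was 0.0202 in persister and 0.0143 in parental cells. The highest was that of HSPA5 with HSP90B1, at 0.206 and 0.231. Genes outside the 10 whose UMIs were most like their sum were PDIA3 (r = 0.211), SPTBN1 (0.207), CANX (0.203), MALAT1 (0.196) and SERPINE2 (0.193) over 5897 persister cells. In 9094 parental cells they were MALAT1 (0.201), SERPINE2 (0.188), NCL (0.164), PDIA3 (0.162) and HNRNPU (0.159). The 95th percentile of all genes at 50 CPM or more was 0.0844 in persister and 0.0616 in parental cells. PDIA3 and CANX are lectin-cycle partners of calreticulin, and neither differed by 1.5-fold between the libraries (199 and 239 CPM for PDIA3, 220 and 235 CPM for CANX).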

How the data were processed

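Single-cell RNA libraries of 1 persister and 1 parental A375 sample were prepared with version 3 of the 10x 3' chemistry, per the labels' protocols. The deposited values are raw UMI counts per gene and barcode, with the gene symbols and barcodes in separate lists, per the file headers. Cell Ranger 3.1.0 and GRCh38 are named in the submitters' processing notes, which give no annotation release.

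Counts of kept barcodes were summed per library and scaled to CPM (numpy 2.4.6, scipy 1.17.1). The log2 scale has a pseudocount of 1 CPM, which understates differences of low genes. Intervals are 95% exact Poisson, conditional binomial (ratios) or Clopper-Pearson (shares), and cover counting error only. Doublets were neither called nor removed. Phases were scored in scanpy 1.11.5, and TMM factors came from edgeR 4.0.16. Gene positions are from GENCODE 29, matched by gene ID, and promoters are from RefSeq.

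The genes and lists were chosen with earlier results of these data known. Named genes were the 10 genes, DDIT3 and CHAC1, up to 3 genes per list with the largest absolute log2 fold, and in each library the 5 genes most correlated with the summed 10. All other genes named (such as EIF2AK3, ASNS, TRIB3, ATF3, SOX10, S100B, SHCBP1, ALG12 and the overlapping partners) complete a count or were chosen after their values were seen. Alternatives were another scaling, pseudocount, fold, gene filter, cell filter, T cell rule, cell weighting, phase and thinning. The 2-fold calls, the Poisson interval and the thinning were tested on simulated counts that held counting error only. The other steps were not tested in this way.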

Additional observations from a re-analysis of the deposited data

Results flagged for a closer look

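Persister barcodes set aside by the T cell rule numbered 162, against 0 of 10630 parental ones (an upper limit of 0.0282%). They lay outside every comparison above. In them EDEM1 was 44.4 CPM (31.4 to 61.0, on 38 UMIs), above the 17.1 CPM of the compared persister cells and the 8.89 CPM of parental cells. XBP1 stood at 152 CPM (127 to 180) there and HERPUD1 at 98.2 CPM (78.3 to 122), while HSPA5 was 385 CPM (344 to 429). These barcodes were picked by T cell genes.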

How the results depend on the processing

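No paired analysis was possible because each group has 1 library, and no library could be left out. Over 9 alternative settings the log2 fold of each of the 10 genes kept its sign, with ranges of 0.21 to 0.67 for HSPA5, -0.41 to -0.11 for HSP90B1, -1.51 to -1.23 for CALR, -2.06 to -1.89 for SDF2L1, 0.94 to 1.77 for HERPUD1 and 0.97 to 1.77 for XBP1. The median log2 fold of the 10 genes and the ratio of their summed CPM were 0.28 and 0.902 with TMM scaling, 0.18 and 0.841 with the stricter cell filter, 0.21 and 0.859 with cells weighted equally, and -0.10 and 0.728 in cells called G1, where 1 gene was at least 2-fold higher. The cause of these shifts was not tested. TMM scaling raised EDEM1 past 2-fold, giving 4 higher. Without the filter on low genes, 4902 genes passed 2-fold on the higher side and 4844 on the lower, since genes of a few UMIs then count. With the filter kept and a fold of 1.5, they were 1714 and 2542. The median ratio of the 10 genes between cells high and low in DDIT3 was 0.877 without thinning, 0.999 at 2500 UMIs, 1.02 by CHAC1, 0.981 in G1 cells, 1.00 without T cell genes and 1.12 for the summed arm. The alternatives without barcodes found in both libraries and with the summed arm were chosen after seeing the data. Depth limits DNAJB9 and EDEM1 most, with at most 1363 UMIs in a library.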

Other observations

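Genes with a stress element were looked at beyond the 10, after their values were known. An ERSE or ERSE-II match was present in a promoter window of 44 genes, of which 24 were measured. These 24 include 7 of the 10 genes, whose values are given above. At least 2-fold higher in persister cells were 3 of the 24 (XBP1, HERPUD1 and ERO1B) and at least 2-fold lower were 5 (CALR, SDF2L1, CRELD2, SHCBP1 and ALG12), against 10.1% and 10.8% of all measured genes. ALG12 reached 5 CPM only in parental cells, where it is high, so its place in this count is in part set by that threshold. The ratio of persister to parental was below 1 for 18 of the 24 and above 1 for 6, with a median log2 fold of -0.33, where 40.6% of all measured genes had a ratio above 1. Among the 17 that are not of the 10, 1 was at least 2-fold higher and 3 were at least 2-fold lower, and the median log2 fold was -0.41.

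A few parental cells carried much DDIT3. With 3 or more DDIT3 UMIs in 5000 there were 18 cells, too few for the comparison above, against 8367 with 0. The 18 cells had 0.389 HERPUD1 UMIs per cell (0.156 to 0.801) and 0.556 XBP1 UMIs (0.266 to 1.02), against 0.118 and 0.170 in the others. All 7 HERPUD1 UMIs lay in the 9 cells with 6 or more DDIT3 UMIs. Of those 9 cells 66.7% were called G1, and of the 9 with 3 to 5 DDIT3 UMIs 22.2%. The share was 4.03% in cells with 0, and the part of phase was not tested. HSP90B1 was at 2.17 UMIs per cell (1.54 to 2.96), against 5.36, CALR at 2.11 (1.49 to 2.90), against 3.83, and HSPA5 at 1.89 (1.31 to 2.64), against 2.55. CHAC1 had 5 UMIs in the 18 cells and 31 UMIs in the 8367.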
